A study of Mus musculus with 74 samples.

Results

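The acute phase protein genes studied here were Saa1, Saa2, Saa4, Orm1, Orm2, Hp, Hpx, Fgb, Lcn2 and Hamp, 10 of the 14583 genes in the RNA-seq table. They were taken by symbol from the RNA-seq table, and by the gene assigned to each peak from 11 tables of ChIP-seq tags, where the genes held 14 to 50 peaks per comparison. In the histone tables the domains over the start of Fgb, of Hamp and, in the Gps2 line, of Orm2 were assigned by the files to neighbouring genes, and they are named as such where they are given.

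The acute phase response is the reprogramming of hepatocyte secretion during infection or injury, driven mainly by interleukin-6 through STAT3 and by interleukin-1 through C/EBP and NF-kB factors. Serum amyloids, orosomucoids, haptoglobin, hemopexin, fibrinogen, lipocalin 2 and hepcidin are made or raised in it, and albumin and transthyretin fall. GPS2 is a subunit of a corepressor complex built on NCOR with HDAC3 and TBL1 proteins, which is recruited by nuclear receptors such as PPARa, the lipid-sensing receptor of the fasted liver.

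Livers came from C57BL/6 mice of 8 to 12 weeks, by the labels, kept on chow diet without an inflammatory stimulus. Gps2 LKO mice carried floxed Gps2 alleles and Alb-Cre, which acts in hepatocytes and leaves Gps2 in the other cells of the liver, and their WT controls were floxed littermates without Cre. Ncor LKO mice lacked the corepressor NCOR in the liver only, and Ppara KO mice lacked PPARa in the whole body, each with WT controls of its own line. The series held 74 samples, of which 8 were RNA-seq libraries (4 WT and 4 Gps2 LKO), 58 were ChIP-seq libraries whose tag counts were used, 2 were input DNA that was not used here and 6 were not analysed here. The labels do not say which RNA and ChIP libraries shared an animal, and according to the methods several ChIP reactions were pooled per library, so p-values measure the spread between these libraries.

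RNA-seq libraries held 13.2 to 20.1 M reads in genes (1 M is 1000000) and ChIP-seq libraries 7.90 to 46.1 M tags. Gps2 itself was at 16.5, 15.8, 16.7 and 15.1 counts per 1000000 reads (CPM, scaled by TMM) in WT and at 12.6, 9.84, 9.13 and 12.9 in Gps2 LKO (log2 fold change −0.53 ± 0.11, SE, adjusted p = 0.0021 by the edgeR quasi-likelihood test). The remaining Gps2 RNA in whole liver and in deleted cells cannot be told apart, and for every gene below fewer cells of a type and less RNA per cell cannot be told apart either. The second Gps2 LKO library stood apart from the other LKO libraries at many genes, and without it 3425 genes were called higher and 3545 lower in place of 2856 and 2621. Liver markers were present at high level, with Alb at 82047 to 85814 CPM in WT.

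The sequences before the gene starts are shown for Saa1, Saa2 and Hamp because the first pair fell and Hamp rose in Gps2 LKO, and because the Saa1 and Saa2 windows are nearly the same. Each is the 250 bases before the start, 5′ to 3′ on the strand of the gene, from RefSeq on GRCm38.p6, at chr7:46742981-46743230 (minus strand) for Saa1, chr7:46751583-46751832 (plus strand) for Saa2 and chr7:30944030-30944279 (minus strand) for Hamp. Capitals mark the C/EBP motif TTGCNNAA in Saa1 and Saa2 and the STAT motif TTCNNNGAA in Hamp, each searched on both strands.
Saa1: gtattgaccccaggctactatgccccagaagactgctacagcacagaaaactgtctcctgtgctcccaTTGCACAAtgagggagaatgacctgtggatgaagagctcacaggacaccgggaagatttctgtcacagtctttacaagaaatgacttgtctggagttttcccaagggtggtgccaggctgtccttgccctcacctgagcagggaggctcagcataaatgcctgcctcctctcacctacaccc
Saa2: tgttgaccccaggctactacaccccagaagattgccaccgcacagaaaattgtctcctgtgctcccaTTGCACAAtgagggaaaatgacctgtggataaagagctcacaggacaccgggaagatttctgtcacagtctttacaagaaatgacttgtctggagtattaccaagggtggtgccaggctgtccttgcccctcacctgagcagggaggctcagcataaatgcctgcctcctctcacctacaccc
Hamp: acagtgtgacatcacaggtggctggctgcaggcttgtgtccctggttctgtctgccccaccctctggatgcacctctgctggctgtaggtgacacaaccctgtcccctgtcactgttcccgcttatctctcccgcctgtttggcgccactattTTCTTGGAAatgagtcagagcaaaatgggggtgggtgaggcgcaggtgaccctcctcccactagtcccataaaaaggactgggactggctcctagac
The Saa1 and Saa2 windows were 96% identical over 247 aligned bases. The C/EBP motif began 182 bases before the start of Saa1 and 183 before that of Saa2, and the STAT motif 97 bases before that of Hamp.

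Promoter windows were at hand for 8 of the 10 genes, all but Orm1 and Hp. The C/EBP motif was found in 7 of these 8, in every one but Hamp, against 9.56% of 32851 mouse promoter windows of the same length. The STAT motif was found in Fgb and Hamp, against 7.02% of all windows. The NF-kB letters GGNNTTTCC were in 0 of 8, against 4.93% of all. A direct repeat of AGGTCA with 1 base between, the kind of element that PPARa binds, was matched with up to 2 mismatches in Saa1 and Saa2, against 3.24% of all windows.

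In RNA-seq of Gps2 LKO against WT the genes split by family. The 3 serum amyloids fell by more than one log2 unit, both orosomucoids fell less, and haptoglobin, hemopexin, the fibrinogen beta chain and hepcidin rose. In the edgeR quasi-likelihood test 4 of 10 genes were higher and 5 were lower at an adjusted p below 0.05, where 23.4% of the 12220 genes tested were higher and 21.4% lower. The median log2 fold change of the 10 genes was −0.30 and that of all genes tested 0.03.

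Saa1 encodes an acute phase apolipoprotein carried on high-density lipoprotein. Its level was 48.1, 55.0, 52.1 and 50.9 CPM in WT against 25.3, 16.5, 22.1 and 23.7 in Gps2 LKO. Every LKO library was below every WT library, with a log2 fold change of −1.23 ± 0.11 (SE, edgeR adjusted p = 1.64e-06), or 57.5% less. Saa2, its closest relative in the same cluster on chromosome 7, was at 33.1, 28.2, 30.2 and 31.6 CPM in WT against 13.5, 11.1, 15.5 and 15.1 in LKO. No library of one group lay within the other, and the log2 fold change was −1.16 ± 0.10 (edgeR adjusted p = 1.71e-06). The Saa1 and Saa2 transcripts are 94.4% identical over 602 aligned bases, so reads may have been split between them in the authors' counting.

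Saa4 is the constitutively made member of the family. Its level was 456, 453, 449 and 449 CPM in WT against 220, 211, 201 and 215 in LKO, so every LKO library was far below every WT library. The log2 fold change was −1.09 ± 0.05, with the lowest adjusted p of the 10 genes (edgeR, 2.66e-09), and the level in LKO was 0.471 of WT. Saa3, which is made outside hepatocytes as well and was not among the 10, fell from 5.44 ± 0.72 to 4.11 ± 0.75 CPM (SD, n = 4, edgeR adjusted p = 0.0447).

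The orosomucoids are plasma lipocalins that carry basic drugs and lipids. Orm1 was at 662, 657, 676 and 696 CPM in WT against 592, 466, 491 and 590 in LKO. Groups were apart but the fall was shallow, with a log2 fold change of −0.32 ± 0.08 (edgeR adjusted p = 0.0045). Orm2 was far rarer, at 5.92, 6.31, 5.88 and 6.52 CPM in WT against 4.24, 4.16, 4.38 and 4.52 in LKO. All 4 LKO libraries were below the WT range, with a log2 fold change of −0.50 ± 0.11 (edgeR adjusted p = 0.0025). Orm1 and Orm2 transcripts are 91% identical over 775 bases, so the level of Orm2 is uncertain where reads could be shared. Both falls were larger with the trend on gene length removed (−0.62 for Orm1 and −0.78 for Orm2) and with total counts (−0.51 for Orm1 and −0.68 for Orm2).

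Hp encodes haptoglobin, which binds free haemoglobin, and Hpx encodes hemopexin, which binds free haem. Hp was at 3128, 2991, 2966 and 2992 CPM in WT against 4285, 3275, 4083 and 4149 in LKO. Groups were apart, the second LKO library lay nearest to WT, and the log2 fold change was 0.40 ± 0.08 (edgeR adjusted p = 0.00107). Hpx was at 3644, 3595, 3613 and 3408 CPM in WT against 4826, 4076, 5027 and 4681 in LKO. It rose by nearly the same amount, with a log2 fold change of 0.39 ± 0.07 (edgeR adjusted p = 0.00041), and again the second LKO library was the lowest of its group. Both rises were smaller but called with total counts (0.21 for each) and with the trend on gene length removed (0.17 for each).

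Fgb encodes the beta chain of fibrinogen, the precursor of the clot. Its level was 4196, 4184, 4137 and 4370 CPM in WT against 5138, 4446, 4965 and 5077 in LKO. The groups did not overlap but the difference was the smallest of those called, with a log2 fold change of 0.23 ± 0.06 (edgeR adjusted p = 0.00676). It depended on scaling, at 0.04 (edgeR adjusted p = 0.465) with total counts, under which the median of all genes moved from 0.03 to −0.15, and at 0.03 (edgeR adjusted p = 0.532) with the trend on gene length removed. The alpha and gamma chains, Fga at 0.04 ± 0.05 and Fgg at 0.09 ± 0.05 on the log2 scale, were not called (edgeR adjusted p = 0.565 and 0.185).

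Lcn2 encodes lipocalin 2, which binds bacterial siderophores and is also made by neutrophils. Its level was 6.42, 6.37, 6.87 and 7.22 CPM in WT against 6.54, 4.72, 5.68 and 5.26 in LKO. The groups overlapped through the first LKO library, and Lcn2 was the 1 gene of the 10 not called, with a log2 fold change of −0.28 ± 0.12 (edgeR adjusted p = 0.0788). It was called lower with total counts (−0.46, edgeR adjusted p = 0.00539), with the length trend removed (−0.55, edgeR adjusted p = 0.000565) and without LKO replicate 1 (−0.36, edgeR adjusted p = 0.0347). Of 12 neutrophil markers 6 were in the table and 2 passed the filter, neither called, with a summed level of 5.12 to 6.77 CPM in WT and 6.66 to 7.40 in LKO.

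Hamp encodes hepcidin, the hormone that closes the iron exporter ferroportin. Its level was 604, 580, 562 and 603 CPM in WT against 1103, 785, 720 and 1075 in LKO. All LKO libraries were above WT, the first and the fourth far more than the other two, and the log2 fold change of 0.66 ± 0.12 (edgeR adjusted p = 0.000588) was the largest rise of the 10 genes. It was 0.31 with the trend on gene length removed (edgeR adjusted p = 0.00267). Its neighbour Hamp2, not one of the 10, was at 17.2, 15.4, 18.0 and 14.2 CPM in WT against 182, 125, 142 and 179 in LKO, a log2 fold change of 3.28 ± 0.13 (edgeR adjusted p = 2.76e-10). The Hamp and Hamp2 transcripts are 94.4% identical over 392 bases, so the part of the Hamp rise that came from reads of Hamp2 was not tested.

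**Figure D1:**
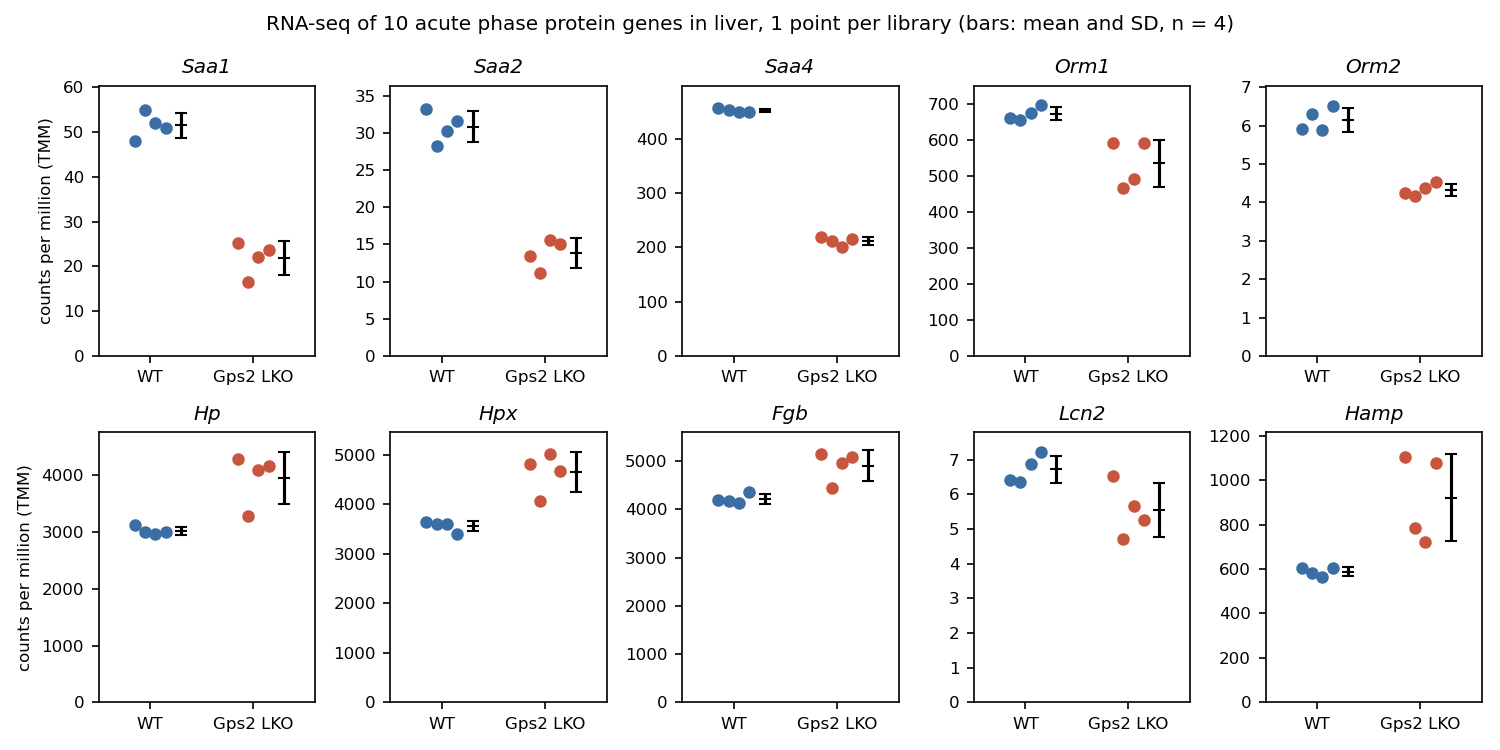
RNA-seq level of each of the 10 genes in CPM after TMM scaling (vertical axes, from 0) in 4 WT (blue) and 4 Gps2 LKO (red) livers, 1 point per library, with the mean and SD in black. Saa1, Saa2, Saa4, Orm1 and Orm2 are lower and Hp, Hpx, Fgb and Hamp higher in Gps2 LKO. The groups overlap in Lcn2. Of all 12220 genes tested, 23.4% were called higher and 21.4% lower.

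Levels were ordered per length of the exons as FPKM. In WT the order was Fgb (2476), Hpx (2409), Hp (2245), Hamp (1446), Orm1 (863), Saa4 (215), Saa1 (84.9), Saa2 (50.5), Orm2 (7.95) and Lcn2 (7.88). The genes that fell were thus the less abundant ones and those that rose the most abundant ones, and the ranges over libraries of Fgb and Hpx, of Hpx and Hp, and of Orm2 and Lcn2 overlapped. The genes whose log2 CPM followed Saa1 most closely over the 8 libraries, of 9901 genes with at least 50 counts on average, were Calr, Uspl1, Nat8f5, Immt and Cyp2d9 (Pearson r of 0.989 to 0.995, a description over libraries that share the 2 genotypes). Those closest to Hamp were Ywhaz, Nit2, Tceb2, Abhd14b and Tmem97 (r of 0.989 to 0.994).

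Other genes of the acute phase did not move as one group. Beside the lists that follow, 23.4% of all 12220 genes tested were higher and 21.4% lower. Of 24 further positive acute phase genes tested, 9 were higher and 7 lower (median log2 fold change 0.06), led by Hamp2, by Cd14, a receptor for lipopolysaccharide (1.19 ± 0.21), and by the serpin Serpina3m (1.01 ± 0.06). The 11 negative acute phase genes, which fall in inflammation, were 8 higher and 0 lower (median 0.62). Serpina6, the corticosteroid carrier, rose by 1.78 ± 0.06 on the log2 scale, transferrin (Trf) by 0.87 ± 0.06 and transthyretin (Ttr) by 0.86 ± 0.10. Crp, the C-reactive protein, was at 0.03 ± 0.07 and was not called.

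Among 26 genes of IL-6, IL-1 and STAT3 signalling 3 were higher and 12 lower (median −0.12), where 23.4% of all genes tested were higher and 21.4% lower. The receptor chains Il1r1 (−1.16 ± 0.08), Il6ra (−0.84 ± 0.13) and Il6st (−0.56 ± 0.14) fell, as did Stat3, the factor downstream of them (−0.33 ± 0.09). The feedback inhibitors Socs2 (1.19 ± 0.11) and Cish (1.16 ± 0.11) rose, while Socs3, the one that STAT3 induces, was at 0.07 ± 0.10 and was not called. Of 10 C/EBP and hepatocyte factors 2 were higher and 3 lower (median −0.08). Cebpa (0.53 ± 0.07) and Foxa2 (0.75 ± 0.09) rose and Hnf4a (−0.41 ± 0.06) fell, while Cebpb (−0.11 ± 0.11) and Cebpd (0.09 ± 0.12), the C/EBP factors of the acute phase, were not called.

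Of 23 genes that control hepcidin through BMP signals and iron, 8 were higher and 6 lower (median −0.0037). Of all 12220 genes tested, 23.4% were higher and 21.4% lower. The BMP target Id1 rose by 1.82 ± 0.20 on the log2 scale, the ligand Bmp6 by 0.56 ± 0.15, the co-receptor hemojuvelin (Hfe2) by 0.57 ± 0.08, the inhibitor Smad7 by 0.51 ± 0.09 and the ferritin light chain Ftl1 by 0.83 ± 0.09. Id1 was rare, at 1.98 ± 0.58 CPM in WT (SD, n = 4). The receptor Bmpr2 fell (−0.61 ± 0.10), as did Atoh8 (−0.33 ± 0.10), Bmpr1a, Acvr1, Hfe and Neo1. Tmprss6 (0.12 ± 0.07), which cleaves hemojuvelin, and Tfr2 (−0.11 ± 0.05) were not called. Of 6 genes of haemoglobin and haem clearance 0 were higher and 3 lower, led by the hemopexin receptor Lrp1 (−0.49 ± 0.15), Cd163, the receptor for haptoglobin with haemoglobin (−0.34 ± 0.12), and the haem synthesis enzyme Fech (−0.17 ± 0.05). The groups overlapped in Lrp1. With the trend on gene length removed Lrp1 (−0.12, edgeR adjusted p = 0.119) and Cd163 (−0.29, edgeR adjusted p = 0.0541) were not called, while Fech was (−0.23, edgeR adjusted p = 0.000535). Of 5 genes of the corepressor complex 3 were lower, Gps2, Ncor1 (−0.63 ± 0.13) and Tbl1x (−0.58 ± 0.17), and Hdac3 and Tbl1xr1 were not called.

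Markers of macrophages and stellate cells were mostly higher in Gps2 LKO, where 23.4% of all genes tested were higher and 21.4% lower. Of 12 macrophage markers 11 were higher, led by Lyz2, C1qa and C1qb (0.77 to 0.93 on the log2 scale), with a summed level of 206 to 210 CPM in WT and 281 to 342 in LKO. All 8 stellate cell markers were higher, led by Col1a1, Col3a1 and Colec11 (0.97 to 1.09), from a summed 123 to 133 CPM in WT to 231 to 264 in LKO. Of 8 endothelial markers 3 were higher (Clec4g, Oit3 and Pecam1), of 2 lymphocyte markers tested Cd4 was lower, and of 10 hepatocyte markers 5 were higher and 3 lower, led by Ass1, Ttr and Apob. The part of these cells in the change of the 10 genes was not tested.

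**Figure D2:**
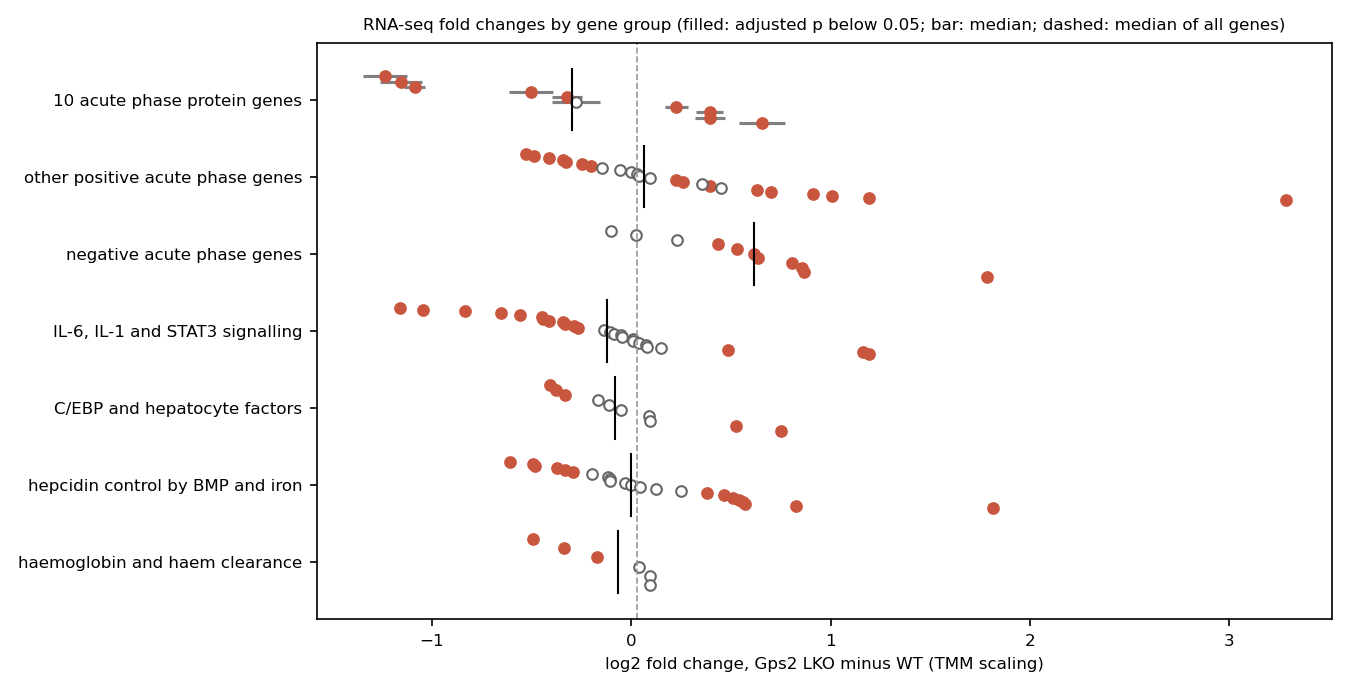
Log2 fold change of RNA in Gps2 LKO against WT (horizontal axis) for the 10 genes, with SE as bars, and for 6 lists of related genes, 1 point per gene, filled where the edgeR adjusted p was below 0.05. Black bars are list medians (−0.30 for the 10 genes and 0.62 for negative acute phase genes) and the dashed line is the median of all genes, 0.03.

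RNA polymerase II (Pol II) ChIP-seq had 1 library per genotype, so it gives no test, and its exact Poisson intervals (95%) cover counting error only. All values are tags per 10,000,000 tags of the library. Over the start of Lcn2 the signal was 23.2 (15.3 to 33.7) in WT and 4.20 (1.37 to 9.81) in Gps2 LKO, a ratio of 0.182 (0.0546 to 0.478). This was the lowest ratio of the 9 starts with a peak, beside an RNA log2 fold change of −0.28 that was not called. Over Saa4 the signal was 127 in WT against 103 in LKO, over Orm1 119 and 90.8, and over Saa1 only 6.01 and 1.68, from 7 and 2 tags. The ratio intervals of Saa4 and Saa1 included 1.

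The genes that rose in RNA showed little difference in Pol II at the start. The signal was 243 in WT against 248 in LKO over Hp, 239 and 261 over Hpx, 217 and 225 over Fgb, and 234 and 253 over Hamp, with every ratio interval including 1. Over the body of Hamp, 1008 bases past the start, it was 206 and 273, a ratio of 1.33 (1.12 to 1.57). Orm1 at 822 bases past the start had 38.6 and 17.7, and Fgb at 9021 bases past it 60.9 and 29.4. Of 15 peaks of the 10 genes with 20 tags or more over both libraries 3 were at least 2 fold lower in LKO and 0 at least 2 fold higher, where 2.12% of all 26085 such peaks were lower and 3.41% higher. Those 3 were the peak at the start of Lcn2, the one in Orm1 and the one assigned to Fgb, which was centred beyond the end of that gene.

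**Figure D3:**
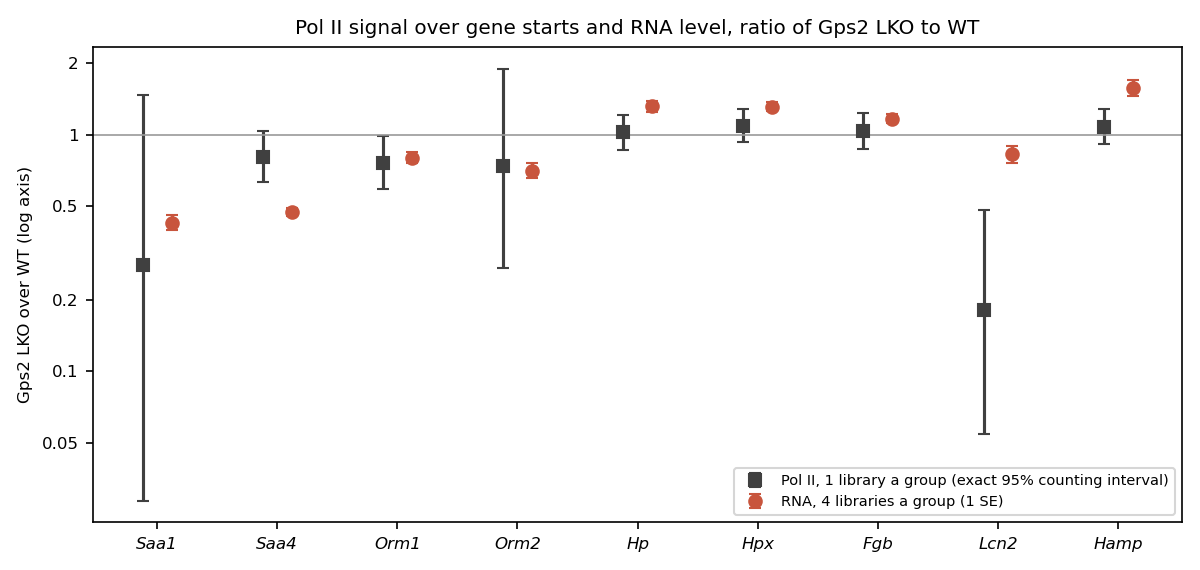
Ratio of Gps2 LKO to WT (log axis) for Pol II signal over the start of 9 genes, squares with exact 95% counting intervals from 1 library per genotype, and for RNA, circles with 1 SE from 4 libraries per genotype. Lcn2 has the lowest Pol II ratio, 0.182, and the Pol II intervals of Hp, Hpx, Fgb and Hamp include 1 while their RNA lies above it. Those of Saa1 and Saa4 include 1 while their RNA lies below it.

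H3K27ac, a mark of active promoters and enhancers, was compared in 2 lines. In the Gps2 line, with 2 libraries per genotype, none of 15 domains of these genes was called in edgeR (0 higher where 1.21% of 47108 domains were, and 0 lower where 0.212% were). An unadjusted p below 0.05 was found at 1 of the 15, and at 6881 of all domains. DESeq2 called 0 of the 15, where it called 593 of all domains higher and 131 lower. Saa1 had 397 and 313 tags per 10,000,000 in WT against 348 and 264 in Gps2 LKO over its gene. Saa2 had 56.0 and 23.2 in WT against 26.7 and 19.7 in LKO, and Saa4 had 459 and 377 in WT against 408 and 326 in LKO. In all 3 serum amyloids the groups overlapped, with log2 differences of −0.22 ± 0.15, −0.76 ± 0.39 and −0.19 ± 0.13 (edgeR adjusted p of 0.599, 0.433 and 0.596).

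Hp had 1841 and 1697 tags in WT and 1901 and 1907 in LKO, and Hpx had 714 and 618 in WT against 771 and 689 in LKO. The differences, 0.11 ± 0.08 and 0.13 ± 0.10 on the log2 scale, were not called (edgeR adjusted p = 0.633 and 0.624). Orm1 had 1297 and 867 tags in WT and 1211 and 718 in LKO, and Lcn2 had 121 and 39.2 in WT against 76.4 and 58.4 in LKO. In both genes replicate 1 was high in both genotypes. The wide domain over Fgb, assigned to Fga, was at 0.35 ± 0.13 (edgeR adjusted p = 0.246) and the one over Hamp, assigned to Usf2, at 0.08 ± 0.09 (edgeR adjusted p = 0.789). The median log2 difference of the 15 domains was −0.14, against 0.06 over all domains. The differences of Orm1 and Lcn2 turned sign when 1 library was left out.

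H3K4me3, a mark of active promoters, was kept for the Gps2 line in 4 domains of these genes, in Saa4, Orm1, Hp and Hpx. None was called (0 higher where 0.798% of 22814 domains were, 0 lower where 0.118% were). An unadjusted p below 0.05 was found at 0 of the 4, and at 1837 of all domains. DESeq2 called 0 of the 4, where it called 174 of all domains higher and 24 lower. Hp had 1475 and 917 tags per 10,000,000 in WT against 1519 and 1380 in LKO, a log2 difference of 0.27 ± 0.15 (edgeR adjusted p = 0.711). Either WT library decided this value, since the difference was 0.66 without the first (edgeR adjusted p = 0.00625) and −0.025 without the second (edgeR adjusted p = 0.945). Saa4 had 626 and 513 in WT against 581 and 548 in LKO, a difference of −0.02 ± 0.09 (edgeR adjusted p = 0.991) beside an RNA level of 0.471 of WT.

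In the Ncor line, with 3 libraries per genotype, none of 14 domains of these genes was called (0 higher where 2.32% of 68817 were, 0 lower where 0.801% were). An unadjusted p below 0.05 was found at 4 of the 14, and at 10686 of all domains. DESeq2 called 1 of the 14 higher, where it called 2460 of all domains higher and 935 lower. The domain over Orm2 had 402, 353 and 340 tags per 10,000,000 in WT against 435, 847 and 677 in Ncor LKO. The groups did not overlap, and the log2 difference was 0.84 ± 0.20 (edgeR adjusted p = 0.0501, DESeq2 adjusted p = 0.00234). The domain over Lcn2 had 75.8, 76.7 and 87.9 in WT against 85.2, 509 and 192 in LKO, where the second LKO library stood far above the others. Its difference of 1.71 ± 0.48 (edgeR adjusted p = 0.0957) was 0.79 without that library and 2.12 (edgeR adjusted p = 0.0136) without LKO replicate 1. The same library led at Saa1, with 782, 818 and 872 in WT against 554, 1472 and 871 in LKO, and at Orm1, with 1018, 698 and 862 in WT against 650, 1313 and 711 in LKO.

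The domain over Hamp, assigned to Usf2, had 3828, 3813 and 4003 tags in WT and 3054, 2984 and 2630 in Ncor LKO. Every LKO library was below every WT library, with a log2 difference of −0.43 ± 0.09 (edgeR adjusted p = 0.0342). The domain over Hamp2 was at 11.4, 10.1 and 14.3 tags in WT and 108.8, 10.2 and 21.3 in Ncor LKO, where the first LKO library stood far above the other five.

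**Figure D4:**
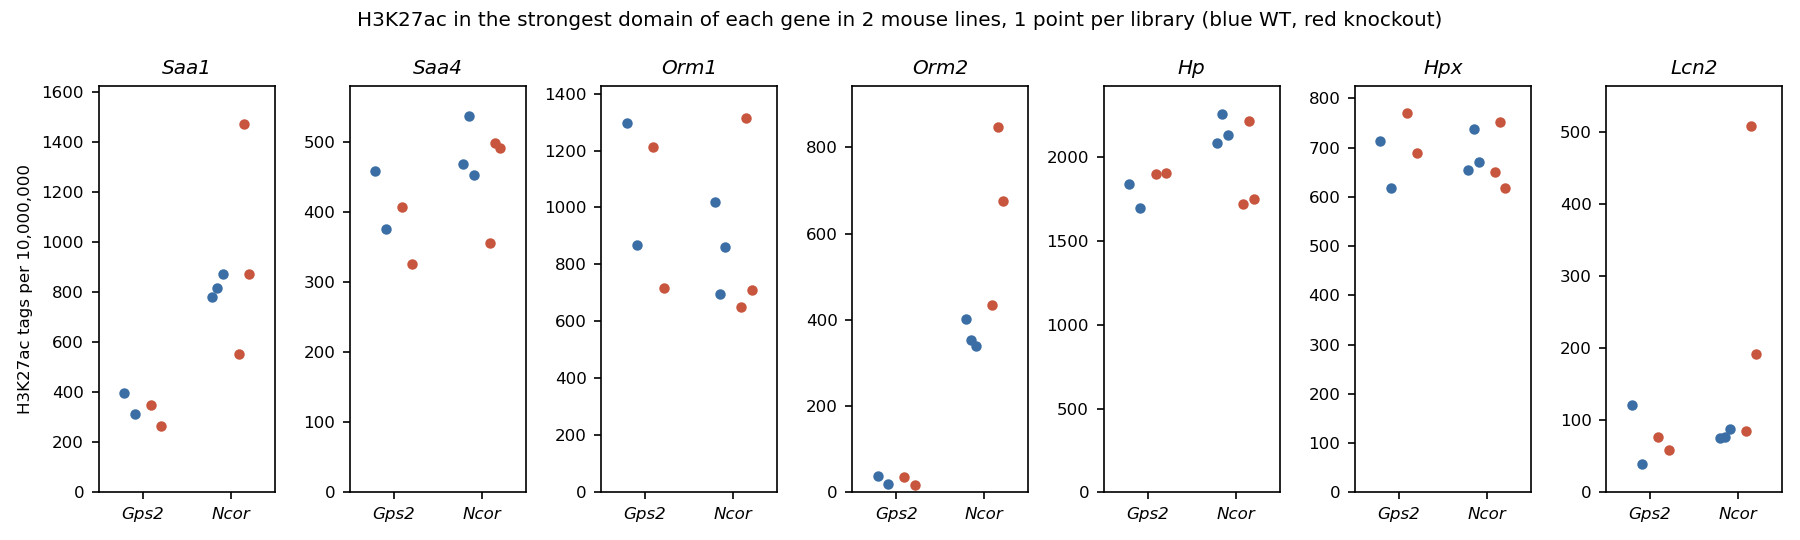
H3K27ac in tags per 10,000,000 (vertical axes, from 0) over the strongest domain assigned to each of 7 genes in the Gps2 and Ncor lines, 1 point per library, blue WT and red knockout. Domains differ in width between the Gps2 table and the Ncor table, and in the Gps2 table the domain over the start of Orm2 is assigned to Orm3, so the Orm2 points of the Gps2 line are a smaller site downstream. One Ncor LKO library is high at Saa1, Orm1, Orm2 and Lcn2.

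The strongest site of Saa1 for PPARa, GPS2 and NCOR alike lay about 3 kilobases before its start, between Saa1 and Saa2. Its sequence is shown with that of PPARa peaks of Hp, Fgb and Hamp, which carry the largest differences or lie at the start, all on the plus strand of mm9. Capitals mark TTGCNNAA in the first 3 and TTCNNNGAA in Hamp, on either strand. The sites are chr7:54001267-54001447 for Saa1, chr8:112103002-112103243 for Hp, chr3:82842909-82843097 for Fgb and chr7:31729110-31729287 for Hamp.
Saa1 distal: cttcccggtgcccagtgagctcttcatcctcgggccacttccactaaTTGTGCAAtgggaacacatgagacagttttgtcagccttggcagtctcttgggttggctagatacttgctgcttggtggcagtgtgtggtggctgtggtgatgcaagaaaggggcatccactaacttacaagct
Hp promoter: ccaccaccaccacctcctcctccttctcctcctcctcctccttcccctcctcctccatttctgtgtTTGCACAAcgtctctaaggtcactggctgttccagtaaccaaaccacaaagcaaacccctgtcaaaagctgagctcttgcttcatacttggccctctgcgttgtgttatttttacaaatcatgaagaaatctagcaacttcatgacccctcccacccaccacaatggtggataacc
Fgb distal: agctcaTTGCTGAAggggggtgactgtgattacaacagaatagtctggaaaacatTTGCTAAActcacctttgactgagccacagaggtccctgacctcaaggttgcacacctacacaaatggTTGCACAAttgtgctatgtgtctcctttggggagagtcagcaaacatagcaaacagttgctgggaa
Hamp promoter: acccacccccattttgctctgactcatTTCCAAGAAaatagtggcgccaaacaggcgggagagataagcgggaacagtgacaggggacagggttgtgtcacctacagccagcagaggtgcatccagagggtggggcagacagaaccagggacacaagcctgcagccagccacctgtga
The C/EBP letters were in 21 of 37 PPARa peaks of these genes in the Ppara table, in windows of 181 bases about the peak centre, against 17.3% of all 40214 such windows. The direct repeat of AGGTCA with up to 2 mismatches was in 5 of the 37, against 13.5% of all windows, and in 0 of the 4 sequences shown.

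PPARa ChIP-seq in Ppara KO livers tells how much of the signal at these sites depends on the receptor. With 2 libraries per genotype, 17 of 37 peaks of these genes were lower in edgeR, where 27.6% of 40241 peaks were lower, and 0 were higher, where 0.0174% were. The median log2 difference was −1.99 for these genes and −1.68 over all peaks. At the distal Saa1 site the signal was 17.0 and 16.8 tags per 10,000,000 in WT against 5.49 and 2.20 in Ppara KO, a log2 difference of −2.09 ± 0.45 (edgeR adjusted p = 0.00275). The Hp start had 17.0 and 19.9 in WT against 1.37 and 1.47 in KO, a difference of −3.62 ± 0.52 (edgeR adjusted p = 0.000122). The site assigned to Fgb 10782 bases past the start lay beyond the end of that gene and had the lowest log2 difference of the 37 peaks. Its signal was 17.7 and 23.7 in WT against 1.37 and 0.733 in KO, a difference of −4.17 ± 0.55 (edgeR adjusted p = 5.83e-05). In all 3 the KO libraries were far below WT. The site of Hp at −5295 bases, with the lowest adjusted p of the 37, had 30.4 and 24.5 in WT against 3.43 and 3.66 in KO (−2.93 ± 0.38, edgeR adjusted p = 5.07e-05).

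Other peaks that were lower in Ppara KO lay at the starts of Saa1 (−1.96 on the log2 scale), Saa4 (−3.16), Orm1 (−2.30) and Orm2 (−1.81), and away from the start in Saa1 (at −4402 and −3585 bases), Fgb (−2427 and 11258), Hamp (−6054 and −1586), Hp (−5890), Hpx (−3162) and Orm1 (−5659). At the start of Lcn2 the signal was 5.66 and 3.82 in WT against 0.687 and 2.20 in KO and was not called (edgeR adjusted p = 0.154). The Hamp start had 3.54 and 3.06 in WT against 0.687 and 0.733 in KO, also not called. The calls rested on few tags. They also needed both WT libraries, as did the calls over all peaks, so this need is not particular to these sites. With TMM scaling 2 of the 37 were called lower, where 1267 of all 40241 peaks were.

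In Gps2 LKO livers PPARa ChIP signal was higher at most peaks of the table, with a median log2 difference of 0.62 over all 102519 peaks. The 3 WT libraries of this comparison agreed within sampling noise (chi-square per degree of freedom of 0.92 to 0.94) and were counted as 1 sample against 3 LKO libraries, so the spread behind every adjusted p of this comparison came from the LKO libraries alone and the WT sample is assumed to vary like them. Of 50 peaks of the acute phase genes 13 were higher in edgeR, where 21.5% of all peaks were, and 0 were lower, where 0.147% were. Their median difference, 0.62, equalled that of all peaks. With TMM scaling, which sets the median of all peaks near 0, none of the 50 was called, where 553 of all peaks were higher. DESeq2 called none either, where 1745 of all peaks were higher. With the 3 WT libraries as 3 samples 25 of the 50 were higher, where 37518 of all 102519 peaks were.

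At the distal Saa1 site PPARa signal was 73.4, 96.9 and 72.1 tags per 10,000,000 in WT against 122, 142 and 110 in Gps2 LKO. The groups did not overlap, with a log2 difference of 0.59 ± 0.25 (edgeR adjusted p = 0.0641). The start of Saa1 had 60.7, 63.6 and 40.6 in WT against 85.0, 88.1 and 86.8 in LKO, a difference of 0.65 ± 0.25 (edgeR adjusted p = 0.042), in a gene whose RNA fell. The Lcn2 start had 32.9, 28.5 and 37.2 in WT against 57.5, 69.2 and 61.0 in LKO, a difference of 0.94 ± 0.27 (edgeR adjusted p = 0.00623), and at that of Orm2 40.5, 61.7 and 49.6 in WT against 93.1, 92.8 and 74.5 in LKO (0.73 ± 0.25, edgeR adjusted p = 0.0228). These were the 3 starts called among the 10 genes. The libraries of the 2 genotypes were also apart at the starts of Hp and Hamp, which were not called.

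The starts of the other 7 genes were not called, with differences of 0.18 to 0.54. PPARa signal at the start of Hp was 105, 110 and 113 in WT against 137, 125 and 113 in LKO, a difference of 0.18 ± 0.24 (edgeR adjusted p = 0.585), and at that of Hamp 25.3, 31.3 and 29.3 in WT against 39.1, 33.2 and 38.1 in LKO (0.35 ± 0.29, edgeR adjusted p = 0.367). Of the other genes that rose in RNA, the start of Hpx was at 0.29 and that of Fgb at 0.42, and a second Fgb peak at −991 bases was called (0.84 ± 0.32, edgeR adjusted p = 0.0435). Of those that fell, Saa2 was at 0.25, Saa4 at 0.40 and Orm1 at 0.54. The Hp site at −8059 bases was at 44.3, 57.0 and 55.2 in WT against 110.3, 85.3 and 97.3 in LKO, the lowest adjusted p of the 50 (0.88 ± 0.25, edgeR adjusted p = 0.00605). The remaining calls were in Hp at −6632 and 6273 bases, Hpx at −3179, Orm1 at 4120, Orm2 at −2420 and Saa1 at −4416, 4257 and 5021, with differences of 0.64 to 1.56.

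In Ncor LKO livers none of 45 PPARa peaks of these genes was called in edgeR (0 higher where 0.151% of 86168 were, 0 lower where 0.0453% were). An unadjusted p below 0.05 was found at 5 of the 45, and at 4506 of all peaks. DESeq2 called 0 of the 45, where it called 24 of all peaks higher and 4 lower. The third WT library was the lowest of WT at 41 of the 45 peaks, as at the distal Saa1 site with 155, 139 and 87.0 in WT against 124, 119 and 168 in Ncor LKO. At the start of Lcn2 the signal was 34.5, 36.3 and 13.8 in WT against 23.4, 62.4 and 68.1 in LKO, and at −567 bases 17.3, 20.8 and 13.3 in WT against 6.84, 44.3 and 66.9 in LKO. The first LKO library was the low one at both sites, so the groups overlapped (1.20 ± 0.52 at the second site, edgeR adjusted p = 0.767). The Hamp start had 50.6, 38.4 and 24.3 in WT against 17.7, 17.6 and 26.1 in LKO (−0.88 ± 0.52, edgeR adjusted p = 1.00), and it was called lower with TMM scaling (−1.005, edgeR adjusted p = 0.0141).

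NCOR ChIP-seq in Gps2 LKO livers showed no called difference at 39 peaks of these genes (0 higher where 0.0124% of 80813 were, 0 lower where 0.00495% were). An unadjusted p below 0.05 was found at 0 of the 39, and at 2253 of all peaks. DESeq2 called 0 of the 39, where it called 3 of all peaks higher and 5 lower. NCOR at the distal Saa1 site was at 107, 111 and 102 tags per 10,000,000 in WT against 99.0, 113 and 84.6 in Gps2 LKO. The groups overlapped and the log2 difference was −0.11 ± 0.40 (edgeR adjusted p = 1.00), beside a Saa1 RNA level of 0.425 of WT. The third LKO library was the lowest of LKO at 32 of the 39 peaks.

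In Ppara KO livers none of 46 NCOR peaks was called either (0 higher where 0.136% of 115042 were, 0 lower where 2.51% were). An unadjusted p below 0.05 was found at 5 of the 46, and at 17881 of all peaks. DESeq2 called 0 of the 46, where it called 35 of all peaks higher and 1053 lower. The distal Saa1 site had 167, 140 and 183 in WT against 168, 173 and 159 in Ppara KO, a log2 difference of 0.03 ± 0.16 (edgeR adjusted p = 0.945) at a site where PPARa signal fell in the same genotype. At the start of Lcn2 NCOR was at 50.4, 50.7 and 68.2 in WT against 34.3, 45.1 and 27.8 in KO, groups that did not overlap (−0.65 ± 0.26, edgeR adjusted p = 0.175). A site at −2416 bases from Orm2 had 0.813, 49.9 and 40.4 in WT against 0, 26.3 and 19.2 in KO, with replicate 1 of both genotypes near 0. Without WT replicate 1 its difference was −1.53 (edgeR adjusted p = 0.00854), without KO replicate 2 it was −1.58 (edgeR adjusted p = 0.0128), and in each case 1 of the 46 was called. The lowest edgeR adjusted p of the 46 was at −1348 bases from Lcn2, with 4.88, 12.0 and 12.6 in WT against 2.45, 4.71 and 2.13 in KO (−1.61 ± 0.54, edgeR adjusted p = 0.0768).

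GPS2 ChIP-seq of 1 WT and 1 Gps2 LKO library shows the signal left where the target is deleted. The summed signal of the 30 peaks of these genes was 694 tags per 10,000,000 in WT against 23.7 in Gps2 LKO, a ratio of 0.0341 (0.0236 to 0.0477, exact 95% interval, counting error only). All 27 peaks with 20 tags or more were at least 2 fold lower, as were 99.8% of all such peaks. The highest WT signal of these genes was at the site assigned to Fgb 10751 bases past the start, beyond the end of that gene. It was 58.7 in WT against 0.676 in LKO, and the distal Saa1 site had 33.6 and 0.676.

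In Ncor LKO livers GPS2 signal was lower across the table, with a median log2 difference of −1.12 over 56278 peaks and −1.35 over 39 peaks of these genes, of which 37 were below 0. None was called in edgeR (0 higher where 0% of peaks were, 0 lower where 0.0338% were). An unadjusted p below 0.05 was found at 20 of the 39, and at 19323 of all 56278 peaks. DESeq2 called 15 of the 39 lower, and 7959 of all peaks. The distal Saa1 site had 70.2, 54.9 and 18.2 tags per 10,000,000 in WT against 19.2, 31.3 and 8.83 in Ncor LKO, and the start of Hp 47.5, 49.9 and 13.4 in WT against 9.36, 14.8 and 8.31 in LKO. The third WT library, the lowest of WT at 33 of the 39 peaks, overlapped the LKO libraries at both. The start of Saa4 had 20.4, 20.8 and 6.97 in WT against 5.91, 4.72 and 2.60 in LKO (−1.84 ± 0.67, edgeR adjusted p = 0.0815), and that of Hamp 14.9, 12.5 and 8.57 in WT against 3.45, 3.54 and 5.19 in LKO (−1.54 ± 0.67, edgeR adjusted p = 0.107). Without the third WT library 27 of the 39 peaks were lower, where 33248 of all peaks were.

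In Ppara KO livers GPS2 signal had a median log2 difference of −0.87 over 21 peaks of these genes and −0.93 over all 27842 peaks. None was called (0 higher where 0% of peaks were, 0 lower where 0.273% were). An unadjusted p below 0.05 was found at 5 of the 21, and at 6410 of all peaks. DESeq2 called 0 of the 21, where it called 0 of all peaks higher and 91 lower. The distal Saa1 site had 22.9, 15.6 and 34.6 in WT against 14.6, 15.9 and 2.16 in Ppara KO, groups that overlapped. The start of Orm2 had 11.1, 7.80 and 17.7 in WT against 5.10, 2.27 and 2.16 in KO, with every KO library below WT (−1.90 ± 0.64, edgeR adjusted p = 0.136).

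**Figure D5:**
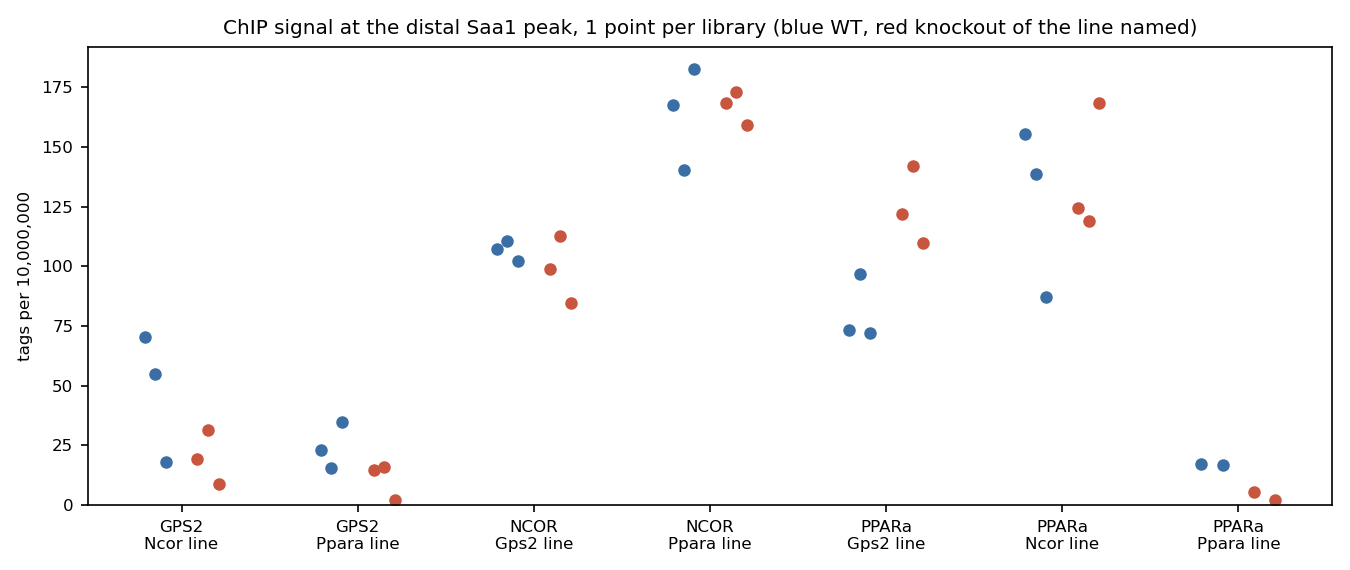
ChIP signal in tags per 10,000,000 (vertical axis) at the site about 3 kilobases before Saa1 in 7 comparisons of GPS2, NCOR and PPARa, 1 point per library, blue WT and red the knockout of the line named. Signal of PPARa is above WT in Gps2 LKO (110 to 142 against 72.1 to 96.9) and below it in Ppara KO (2.20 and 5.49 against 16.8 and 17.0), and NCOR overlaps between genotypes in both lines. The PPARa difference in Gps2 LKO, 0.59 on the log2 scale, was not called, beside a median of 0.62 over all peaks. It was −0.014 with TMM scaling, and the 3 WT libraries of that comparison were counted as 1 sample.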

How the data were processed

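Liver RNA-seq and ChIP-seq files were used as deposited. Per the file headers and the labels, the RNA-seq table holds raw counts of reads per gene made by the authors, and each ChIP-seq table raw counts of tags per merged peak with the gene nearest to it and the total tags of each library. The tools named in the submitters' processing notes were Bowtie2, HISAT2, SAMtools, HOMER and featureCounts, with no versions. ChIP-seq coordinates are mm9. The exon coordinates of the RNA-seq table are those of GRCm38, while the study's methods name mm9 and the notes list mm9, mm10 and GRCm38. The deposited peak lists of the histone marks carry a score of 1 in every line, per the file headers peaks of HOMER, and only their positions were used. The RNA-seq table also holds a comparison by the authors (fold change, p-value and false discovery rate), which was not used. Several ChIP reactions were pooled per library by the authors.

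The main test was the quasi-likelihood test of edgeR 4.0.16 in R 4.3.3 with Benjamini-Hochberg adjustment over the whole table at 0.05. RNA-seq was scaled by TMM and filtered on low counts. ChIP-seq was scaled to the total tags of the library without further scaling, so differences in enrichment between libraries remain, and peaks with at least 1 tag were tested. Histone domains of the Gps2 line were tested where called in at least 2 of the 4 libraries. Levels are CPM for RNA and tags per 10000000 for ChIP. Tables with 1 library per genotype got no test but exact Poisson intervals (95%, SciPy 1.17.1), and peaks with 20 tags or more over both were counted. DESeq2 1.42.0, other scalings and filters, a replicate block, pooled WT libraries and leaving out each library were alternatives. The tests were tried on simulated data before use. Promoters were taken from RefSeq on GRCm38.p6, and motifs searched in Python 3.11.15 with pandas 2.3.3 and Biopython 1.88.

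The genes and lists were chosen with earlier results of these data known. Named were all 10 genes, in each ChIP table the peak nearest to the start within 1000 bases and any other called peak (with 1 library per genotype, any with 20 tags or more in WT), in each list the 3 largest called changes with the subunits of the corepressor and chosen inputs of hepcidin and IL-6 signalling, and the 5 genes most like Saa1 and Hamp. Other peaks named, among them the distal Saa1 site where it was not called, and other genes of the lists were chosen after their values were seen. One gene, and the libraries and comparisons that concern it, are not reported here.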

Additional observations from a re-analysis of the deposited data

Results flagged for a closer look

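The first WT library had the highest Hp RNA of its group, 3128 CPM against 2966, 2991 and 2992, a gap to its neighbour of 0.844 of the range of the group. Of 22 groups of 4 libraries looked at, this 1 had a library that stood apart in this way, and chance gives about 1 in 20.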

How the results depend on the processing

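In RNA-seq 4 of the 10 genes were higher in Gps2 LKO and 5 or 6 lower without any 1 library, and the changes of call under other settings were those of Fgb and Lcn2. With another filter 1 H3K27ac domain was higher in Ncor LKO, where 1609 of all 67719 were. With that filter 1 GPS2 peak was lower in Ncor LKO, where 1698 of all 24882 were. With TMM 1 PPARa peak, the Hamp start, was lower in Ncor LKO, where 400 of all 86168 were. In Gps2 LKO 0 PPARa peaks were higher with TMM and 0 with DESeq2, where 553 and 1745 of all 102519 peaks were. With the 3 WT libraries as 3 samples 25 were higher, where 37518 of all peaks were. With TMM the strongest Saa1 site went to −0.014, the Hp start to −0.43 and the Hamp start to −0.25. The strongest Saa1 site in Ncor LKO went to −0.027 with TMM. In Ppara KO 2 PPARa peaks were lower with TMM and 11 with DESeq2, where 1267 and 6969 of all 40241 peaks were. In Ncor LKO DESeq2 called 1 H3K27ac domain higher, where 2460 of all 68817 were, and 15 GPS2 peaks lower, where 7959 of all 56278 were. Scaled to the tags in listed peaks, the summed GPS2 ratio was 0.777, a scaling that removes a loss common to all peaks by construction. The cause of the other changes was not tested.

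Same-numbered libraries deviated together by a correlation of 0.03 to 0.14 in RNA-seq and by 0.18 and 0.24 in the H3K27ac and H3K4me3 pairs of the Gps2 line. Differently numbered RNA-seq libraries reached 0.13 (WT 4 with LKO 1). In no comparison with 3 or more pairs was every pair above 0.1. The Gps2 histone comparisons, with 2 pairs each, lay above it. With 2 libraries per genotype, both pairs of a mark hold the same value by construction. Whether same-numbered libraries shared an animal or a batch was not tested. With the replicate number as a block, 1 H3K4me3 domain was higher (Hp, 0.30, edgeR adjusted p = 0.00117), where 542 of all 22814 were. In Ncor LKO 16 GPS2 peaks were lower, where 10495 of all 56278 were. In Ppara KO 0 PPARa peaks were lower, as over all peaks. In Gps2 LKO 25 PPARa peaks were higher with the 3 WT libraries apart, where 36977 of all 102519 were. Orm1 H3K27ac in Ncor LKO went to −0.0099.

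Without 1 library, the calls ranged from 0 to 1 lower H3K27ac domains (1 without LKO replicate 1) and 0 to 1 higher H3K4me3 domains (1 without WT replicate 1) in Gps2 LKO, and 0 to 2 higher H3K27ac domains in Ncor LKO (2 without LKO replicate 1). They ranged from 0 to 27 lower GPS2 peaks in Ncor LKO (27 without WT replicate 3), 0 to 1 lower NCOR peaks in Ppara KO, 3 to 17 higher PPARa peaks in Gps2 LKO (5 without WT replicate 1, 8 without WT replicate 3, 3 without LKO replicate 2, 4 without LKO replicate 3) and 0 to 13 lower PPARa peaks in Ppara KO (0 without either WT library, 9 without KO replicate 2). Log2 differences that turned sign ranged in the Gps2 line from −0.31 to 0.10 at the second Saa1 H3K27ac domain, −0.59 to 0.16 at Orm1 and −0.85 to 0.78 at Lcn2, and for H3K4me3 from −0.15 to 0.14 at Saa4, −0.42 to 0.73 at Orm1, −0.025 to 0.66 at Hp and −0.059 to 0.38 at Hpx. For H3K27ac in Ncor LKO they ranged from −0.21 to 0.51 at Saa1, −0.20 to 0.026 at Saa4 and −0.34 to 0.24 at Orm1, and at the strongest Saa1 site from −0.069 to 0.12 for NCOR in Ppara KO and −0.10 to 0.28 for PPARa in Ncor LKO.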
